A study of Mus musculus with 22 samples.

Results

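The genes described here encode 8 DNA-binding partners of HOX proteins: Meis1, Meis2, Meis3, Pbx2, Pbx3, Pbx4, Pknox1 and Pknox2. They were chosen by gene symbol, and all 8 were found among the 55055 genes present in every count table. MEIS, PBX and PKNOX proteins belong to the TALE class of homeodomain proteins, named for a short loop of extra amino acids inside the homeodomain. PBX proteins bind DNA together with HOX proteins and sharpen which sites HOX proteins recognise. MEIS and PKNOX proteins bind PBX in turn, help to bring it into the nucleus and can form complexes on DNA that hold all 3 kinds of protein.

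The RNA came from wild-type mouse embryonic stem (mES) cells and from cells of genotype Hox-/-, described by the submitters as without any Hox function, in 22 libraries and 10 groups. The mES cells of both genotypes (2 libraries each) were grown in medium with LIF (100 ng/ml), CHIR99021 (3 µM), which blocks GSK-3, and PD0325901 (1 µM), which blocks MEK. The endoderm cultures of both genotypes (3 libraries each) were adherent cells given 100 ng/ml Activin A with 3 µM CHIR99021 at 24 h and again at 72 h, and were collected at 120 h. Gastruloids are clumps grown from stem cells that take on features of an embryo around gastrulation. They were made with Activin A from both genotypes and with Chiron (CHIR99021) from wild-type cells, and were collected at 96 h and 120 h (2 libraries per group). The labels give no dose for the gastruloids, do not say how many Hox-/- clones were used, and do not say which libraries came from separate cultures. The genotype and the particular cell line therefore cannot be told apart, and p-values measure only the spread between these libraries.

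Library totals lay between 9108085 and 28819301 counts. Depth was split by time in the gastruloids: every library at 96 h had 14953662 counts or more, and every library at 120 h 11930416 or fewer. Expression is given as CPM, the count scaled by the library total, and as FPKM, which is also scaled by transcript length, where genes are compared with each other. The summed CPM of the 23 Hox genes of paralog groups 1 to 8 was 942.2 to 957.5 in wild-type Activin A gastruloids at 120 h and 37.5 to 44.1 in Hox-/- ones. In endoderm cultures that sum was 358 to 391 in wild type and 15.1 to 18.7 in Hox-/-. The 16 Hox genes of paralog groups 9 to 13 summed to 471 to 508 CPM in wild-type and 7.37 to 10.7 in Hox-/- endoderm cultures. In Activin A gastruloids at 120 h they summed to 225 to 233 CPM in wild type and 25.3 to 26.3 in Hox-/-. At 96 h their sum was higher in Hox-/-, at 41.1 to 41.7 CPM against 10.2 to 10.4. There 13 of the 16 had 3 counts or fewer in every Hox-/- library. Pluripotency markers summed to 6986 CPM or more in mES libraries, and to 972 or less in endoderm libraries. The 11 endoderm markers summed to 991 to 1007 CPM in wild-type and 575 to 627 in Hox-/- endoderm cultures. The Chiron pair at 96 h had the largest chi-square per degree of freedom (10.3 over 16142 genes, against 1.37 to 6.30 in the other pairs). This value, taken on raw counts, grows with depth as well as with the spread, so pairs of unlike depth are not directly comparable. That pair had 20547464 and 28819301 counts. The wild-type Activin A pair at 96 h, with 22505531 and 25806178 counts, gave 1.88.

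In mm10 coordinates Meis1 lies at chr11:18879817-19018985, Meis2 at chr2:115863064-116065839 and Meis3 at chr7:16175090-16186504. Pbx2 lies at chr17:34591266-34597400, Pbx3 at chr2:34171457-34373142 and Pbx4 at chr8:69832491-69872292. Pknox1 lies at chr17:31564734-31607693 and Pknox2 at chr9:36890982-37147407. Whether the counting used strand is not given in the sources used here, so reads of overlapping genes cannot be assigned with certainty. Meis1 shares 1029 exonic bases with Gm37818, whose group means reached 2.18 CPM, and 896 with the antisense gene Gm16140, which had no counts. Pbx2 shares 227 exonic bases with Gpsm3 (at most 2.95 CPM), and Pknox1 shares 155 with the antisense gene AC166172.4 (at most 0.972 CPM).

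Promoter sequences were matched in RefSeq (build GRCm38.p6) for 5 of the 8 genes, Meis1, Meis2, Meis3, Pbx2 and Pbx4, as windows of 300 bases from 250 before to 50 after the RefSeq start. Stretches of 3 of these are shown, those of Meis1, Pbx2 and Pbx4, while the Meis2 and Meis3 windows begin inside an exon in GENCODE M21. Each stretch ends before the first exon that GENCODE M21 gives in its window. The stretches are Meis1 at chr11:19018986-19019219 on the minus strand, Pbx2 at chr17:34592009-34592262 on the plus strand and Pbx4 at chr8:69832374-69832490 on the plus strand. The Pbx2 stretch lies downstream of the start that GENCODE gives for the longest Pbx2 transcript span (34591266) and holds none of its exons. Capitals mark the CCAAT box (CCAAT, or ATTGG on the other strand) and the GC box (GGGCGG, or CCGCCC on the other strand).
Meis1: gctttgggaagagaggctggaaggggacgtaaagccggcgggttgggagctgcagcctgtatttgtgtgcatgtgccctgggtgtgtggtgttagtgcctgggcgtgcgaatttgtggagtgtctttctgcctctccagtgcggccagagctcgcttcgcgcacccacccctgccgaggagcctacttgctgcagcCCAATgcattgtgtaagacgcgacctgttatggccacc
Pbx2: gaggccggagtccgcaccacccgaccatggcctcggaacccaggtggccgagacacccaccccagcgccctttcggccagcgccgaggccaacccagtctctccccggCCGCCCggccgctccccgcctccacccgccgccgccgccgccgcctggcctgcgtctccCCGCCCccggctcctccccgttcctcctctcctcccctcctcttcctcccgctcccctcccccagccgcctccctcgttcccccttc
Pbx4: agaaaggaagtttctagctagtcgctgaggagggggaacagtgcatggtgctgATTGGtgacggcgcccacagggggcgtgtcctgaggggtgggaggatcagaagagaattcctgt
The CCAAT box was found once in the 300-base window of Meis1 and of Meis2, 2 times in that of Pbx4 and not in those of Meis3 and Pbx2. It was present in 37.4% of all 32851 promoter windows. The GC box was found 2 times in the Pbx2 window and in none of the other 4, against 35.7% of all windows. The MEIS and PKNOX core motif TGACAG and the PBX-HOX motif TGATTNAT, searched on both strands, were in none of the 5 windows, and in 19.2% and 3.2% of all windows. GC content was 51.0% in the Meis2 window, 58.3% in Meis1, 59.3% in Pbx4, 66.7% in Meis3 and 76.0% in Pbx2.

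Compared by FPKM, Pbx2 was the most abundant of the 8 genes by group mean in all 10 groups, from 23.6 in wild-type mES cells to 94.97 in Hox-/- Activin A gastruloids at 120 h. Meis2 followed in the gastruloids at 120 h, with 47.8 to 70.4 FPKM. Pbx4 did not exceed a group mean of 3.66 FPKM. Its FPKM differed widely between libraries of a group, for example 2.11 and 5.20 in Chiron gastruloids at 120 h.

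The make-up of each family changed between groups. In mES cells Meis2 held nearly all of the summed Meis FPKM, 87.9% in wild type and 95.5% in Hox-/-. In wild-type endoderm cultures the Meis sum was divided into 21.6% Meis1, 31.4% Meis2 and 46.9% Meis3. Pknox1, expressed in many tissues, made up 70.1% of the summed Pknox FPKM in wild-type mES cells and 56.4% in Hox-/- mES cells. In every gastruloid group Pknox2 was the larger share instead, from 72.8% in wild-type Activin A gastruloids at 96 h to 88.5% in Hox-/- ones at 96 h.

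**Figure D1:**
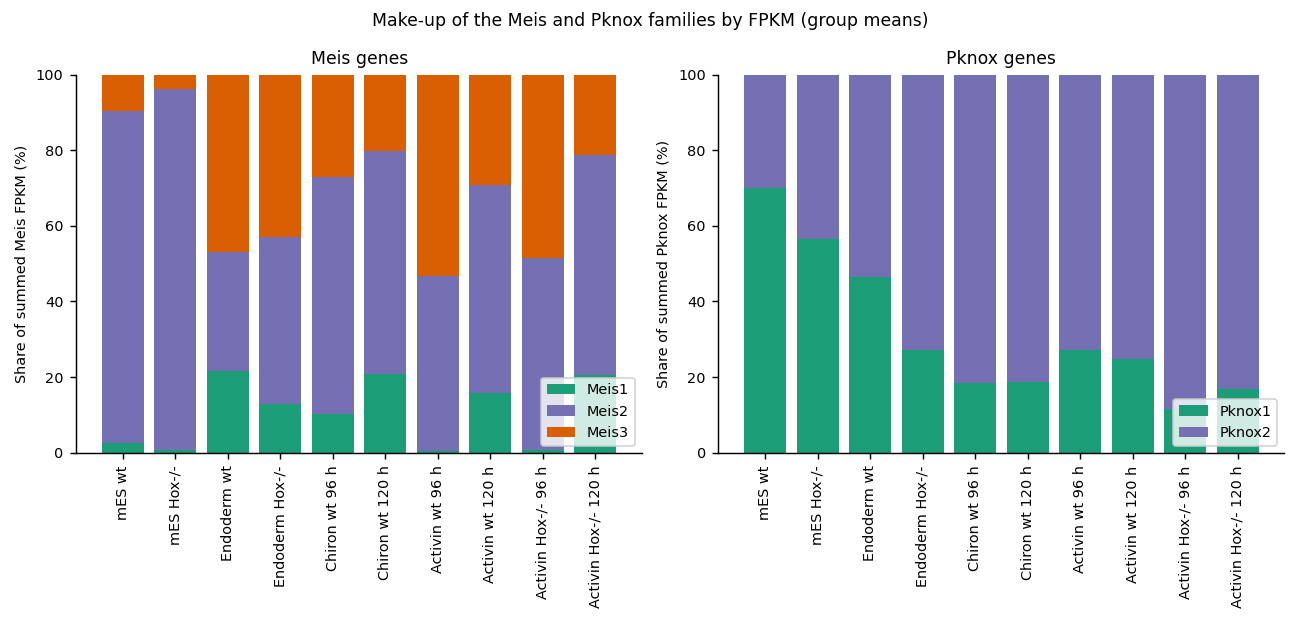
Stacked bars give the share (%) of the summed Meis FPKM (left) and Pknox FPKM (right) held by each gene, as group means over 2 or 3 libraries. Meis1 is a sliver in mES cells and in both Activin A groups at 96 h (at most 2.57%), and Pknox1 shrinks from 70.1% in wild-type mES cells to 11.5% in Hox-/- Activin A gastruloids at 96 h.

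The order of the 10 groups by CPM differed from gene to gene. Meis1 ran from 0.252 CPM in an mES library to 86.2 in a Hox-/- gastruloid library at 120 h, and the neighbouring groups whose ranges overlapped were both Activin A groups at 96 h, and wild-type endoderm with Chiron at 96 h. Meis2 ran from 18.3 CPM in wild-type mES cells to 239 in Hox-/- gastruloids at 120 h, with overlaps between both Activin A groups at 96 h and between both Chiron groups. Meis3 was lowest in mES cells (1.05 to 1.63 CPM) and highest in wild-type Activin A gastruloids at 120 h (76.9 to 78.9), and only Hox-/- endoderm and Chiron at 120 h overlapped as neighbours. All 3 Meis genes were thus lower in wild-type mES cells than in any wild-type culture made from them.

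Pbx2 ran from 55.2 CPM in mES cells to 276 in Hox-/- gastruloids at 120 h, and only the mES groups overlapped. Pbx3 ran from 6.201 CPM in mES cells to 82.9 in wild-type Activin A gastruloids at 96 h, with overlaps between the mES groups and between wild-type Activin A at 120 h and Chiron at 96 h. Pbx4, at 1.29 to 5.82 CPM, had 6 groups at the low end in which every neighbouring pair overlapped, as did both Activin A groups at 96 h, and Chiron and wild-type Activin A at 120 h. Pknox1 was highest in wild-type mES cells (33.3 to 34.9 CPM) and lowest in Hox-/- Activin A gastruloids at 96 h (13.9 to 14.2), and in between, wild-type Activin A at both times and Chiron at 120 h overlapped. Pknox2 took nearly the opposite course, lowest in wild-type mES cells (11.9 to 12.8) and highest in Hox-/- Activin A gastruloids at 96 h (94.6 to 99.0), which overlapped Chiron at 96 h.

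**Figure D2:**
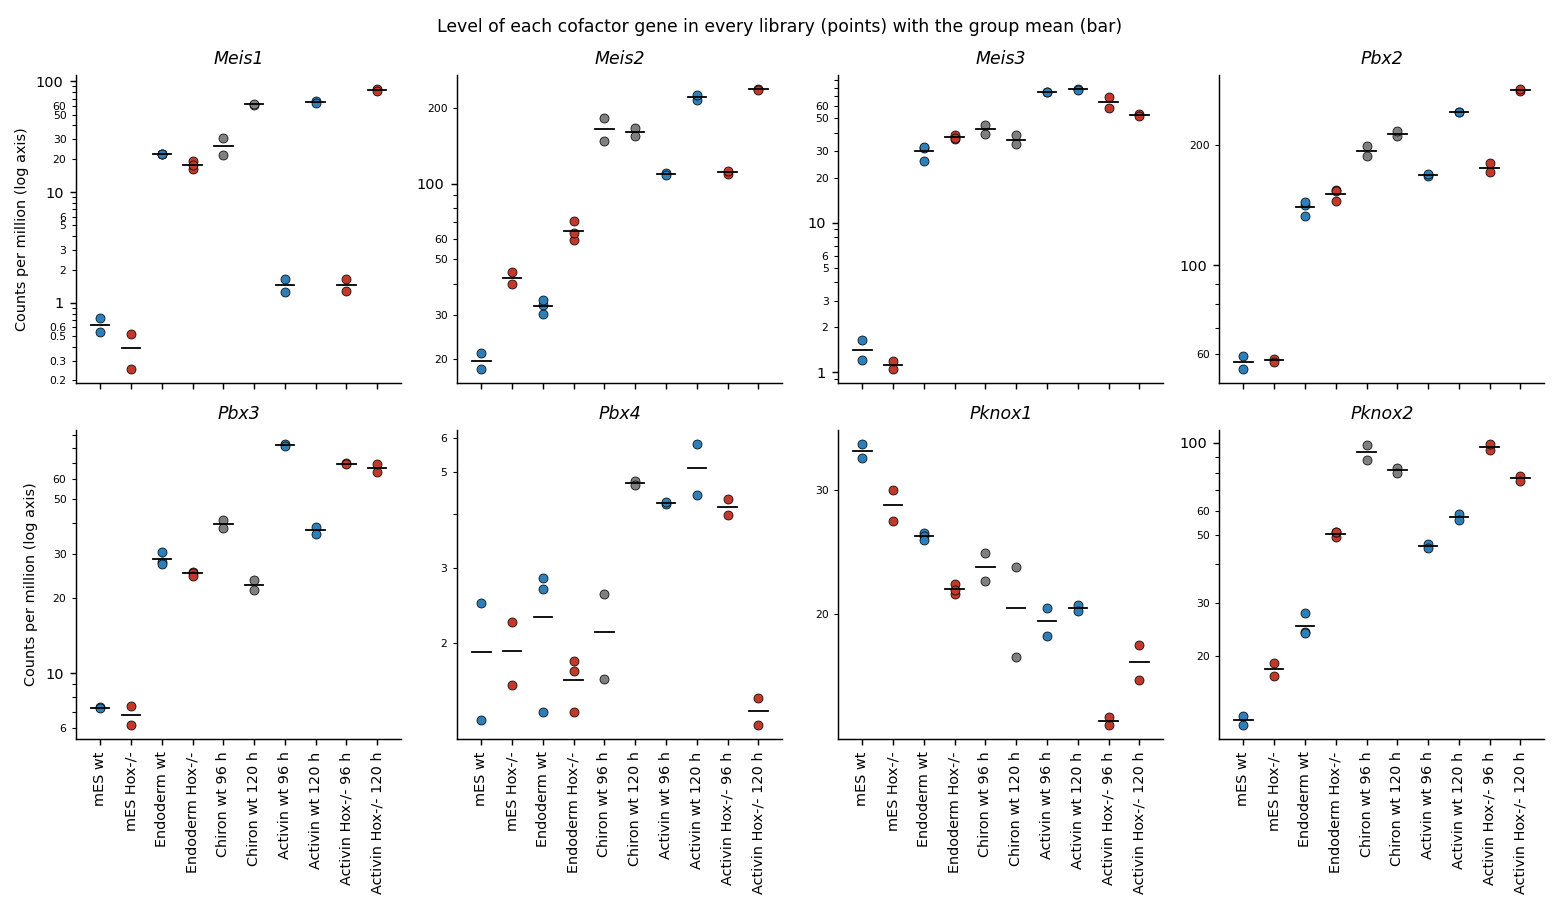
Each panel plots 1 gene, with CPM on a log axis for every library (points) and the group mean (bar); red points are Hox-/-, blue points wild-type mES, endoderm and Activin A libraries, and grey points wild-type Chiron libraries. Meis1 lies below 2 CPM in the Activin A libraries at 96 h and above 64 CPM at 120 h, and Pknox1 is the only panel in which the mES libraries are the highest.

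Hox-/- was compared with wild type in mES cells, endoderm cultures and Activin A gastruloids at both times, to ask which cofactor genes differ between the genotypes. Wild-type mES cells themselves had little Hox RNA. Paralog groups 1 to 8 summed to 5.75 to 7.64 CPM there, with 16 of the 23 genes at 3 counts or fewer in every library, and to 0.374 to 1.18 in Hox-/-. Groups 9 to 13 summed to 24.6 to 28.1 CPM in wild-type and 0.0747 to 0.168 in Hox-/- mES cells. Pknox2 was higher in Hox-/- in all 4 settings, by 1.45-fold to 2.18-fold. Pknox1 was lower in 3 of the 4. Meis2 was about doubled in mES cells and endoderm cultures, and Pbx3 and Pbx4 differed most in gastruloids at 120 h, in opposite directions. A gene was called where edgeR's Benjamini-Hochberg adjusted p was under 0.05.

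Calls were frequent among all genes, and the members' counts have to be read against them. In mES cells 2 of the 7 members tested were higher in Hox-/- and 1 was lower, against 12.4% and 10.8% of 13631 genes. In endoderm cultures 3 of 8 were higher and 2 lower, against 23.1% of 14975 genes in each direction. In gastruloids at 96 h 2 of 8 were higher and 3 lower, against 22.2% and 16.7% of 16831 genes, and at 120 h 5 were higher and 2 lower, against 24.9% and 25.5%. The members' median log2 change was 0.02, -0.03, 0.04 and 0.26 in the 4 settings, beside 0.00, 0.00, 0.03 and -0.02 over all genes tested. Scaling by library totals alone in place of TMM changed the part of all calls that were higher from 57.0% to 42.5% at 96 h and from 49.4% to 34.6% at 120 h. Without wild-type replicate 1 or 2 the number of genes called in mES cells fell from 3168 to 1477 or 1690. On log2(FPKM + 1) with limma, Meis2 and Pknox2 in mES cells (adjusted p = 0.068 and 0.0964), Meis1 and Meis3 in endoderm cultures (0.052 and 0.0575) and Meis3 at 96 h (0.0668) missed the threshold.

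**Figure D3:**
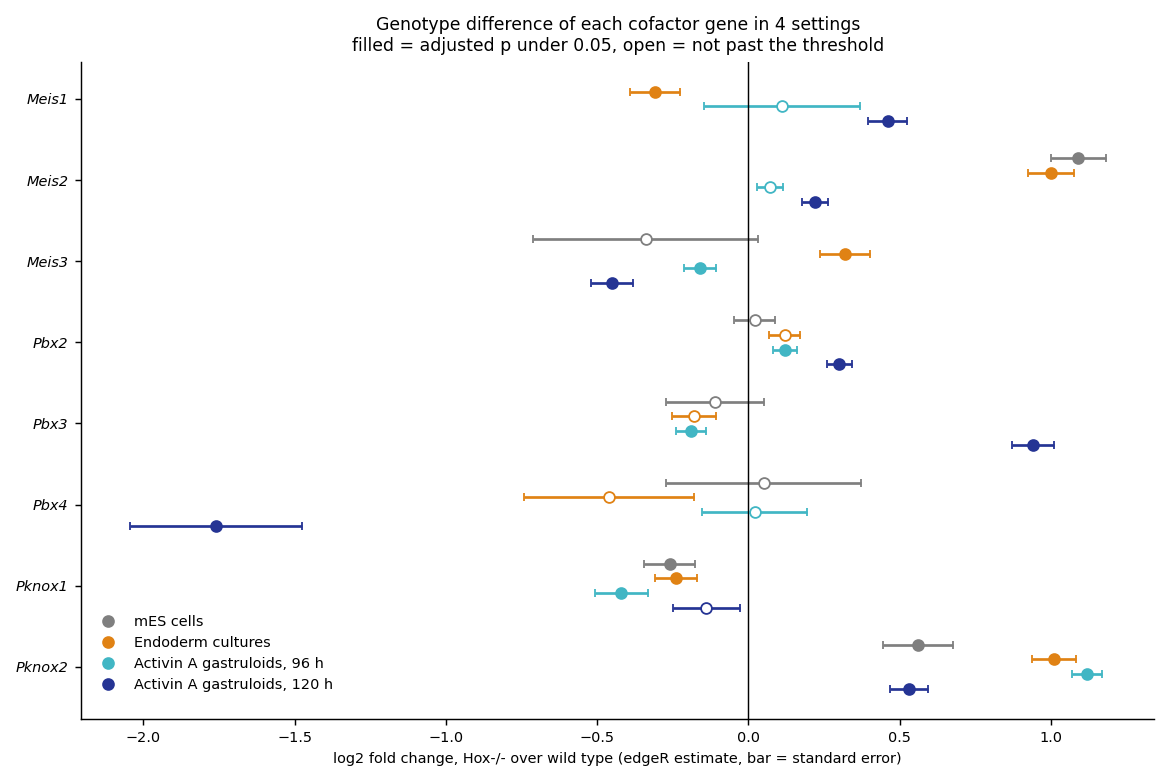
The horizontal axis is the log2 fold change of Hox-/- over wild type from edgeR, with its standard error as a bar, for each gene in mES cells, endoderm cultures and Activin A gastruloids at 96 h and 120 h; filled points passed an adjusted p of 0.05 and open points did not. All 4 Pknox2 points lie right of 0, all 4 Pknox1 points lie left of it, and Pbx4 at 120 h lies farthest out, at -1.76.

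Meis1, a HOX partner known for its part in blood stem cells, was too low in mES cells to be tested, with 11 and 7 counts in wild type and 7 and 3 in Hox-/-. In endoderm cultures Meis1 was at 21.9, 22.3 and 22.03 CPM in wild type and 16.3, 19.1 and 17.8 in Hox-/-. These ranges did not overlap, and Meis1 was lower in Hox-/- by 1.24-fold (log2 -0.31 ± 0.0823 SE, adjusted p = 0.00649). In gastruloids at 120 h Meis1 stood at 66.8 and 64.4 CPM in wild type and 86.2 and 81.3 in Hox-/-. There it was higher in Hox-/- by 1.38-fold (log2 0.46 ± 0.0644 SE, adjusted p = 2.81e-08), the opposite direction. At 96 h, with 1.24 to 1.64 CPM in both genotypes, no difference passed (log2 0.11 ± 0.258 SE, adjusted p = 0.771). In a bulk sample, fewer cells that express a gene and less of its RNA per cell cannot be told apart.

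Meis2, a close relative of Meis1 that acts in limb, heart and neural crest, was at 18.3 and 21.2 CPM in wild-type mES cells and 39.7 and 44.5 in Hox-/- ones. The groups were far apart, and the difference was 2.13-fold (log2 1.09 ± 0.0906 SE, adjusted p = 9.03e-12). In endoderm cultures Meis2 was at 30.2, 32.9 and 34.3 CPM in wild type and 59.5, 70.6 and 63.5 in Hox-/-, a 2.00-fold difference (log2 1.00 ± 0.0745 SE, adjusted p = 9.58e-08). The genotype difference in Meis2 was thus of nearly the same size in both, and the test of their difference gave a log2 value of -0.07 ± 0.128 (SE, adjusted p = 0.745). In gastruloids it was small: at 96 h Meis2 was at 110 and 108 CPM in wild type and 109 and 112 in Hox-/- (log2 0.07 ± 0.0428 SE, adjusted p = 0.198). By 120 h Meis2 had 215 and 225 CPM in wild type and 239 and 236 in Hox-/-, 1.16-fold higher (log2 0.22 ± 0.0427 SE, adjusted p = 2.13e-05).

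Meis3, a relative known from hindbrain patterning, was at 31.7, 25.9 and 32.2 CPM in wild-type and 36.0, 38.4 and 37.0 in Hox-/- endoderm cultures, 1.25-fold higher in Hox-/- (log2 0.32 ± 0.0824 SE, adjusted p = 0.00537). In gastruloids at 120 h the order was turned: 78.9 and 76.9 CPM in wild type stood above 53.3 and 52.1 in Hox-/-, a 1.37-fold difference (log2 -0.45 ± 0.0693 SE, adjusted p = 2.50e-07). At 96 h Meis3 was at 75.3 and 74.9 CPM in wild type and 69.8 and 58.5 in Hox-/- (log2 -0.16 ± 0.0539 SE, adjusted p = 0.0143). That call rested on Hox-/- replicate 2, without which the log2 change was -0.052 (adjusted p = 0.521), and without replicate 1 it was -0.31. DESeq2 did not call it either (adjusted p = 0.137). In mES cells Meis3 was at 1.20 and 1.63 CPM in wild type and 1.05 and 1.18 in Hox-/- (log2 -0.34 ± 0.371 SE, adjusted p = 0.562).

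Among the Pbx genes, Pbx2, expressed in most tissues, was at 57.6 to 58.5 CPM in Hox-/- mES cells, inside the wild-type range. In endoderm cultures Pbx2 was at 133, 142 and 144 CPM in wild type and 154, 145 and 153 in Hox-/- (log2 0.12 ± 0.0516 SE, adjusted p = 0.0716). At 120 h in gastruloids it was at 240.5 and 242 CPM in wild type and 272 and 276 in Hox-/-, 1.23-fold higher (log2 0.30 ± 0.0418 SE, adjusted p = 4.49e-08). At 96 h the values were 167 and 169 CPM against 180.1 and 171 (log2 0.12 ± 0.0395 SE, adjusted p = 0.0157). The call at 96 h was lost without wild-type replicate 1 (0.10), wild-type replicate 2 (0.12) or Hox-/- replicate 1 (0.075), and with DESeq2 (adjusted p = 0.0706). It was also lost under total-count scaling (0.064), both other low-count filters (0.069 and 0.085) and a fit of these groups alone (0.079), and the sign turned on FPKM (-0.012).

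Pbx3, active in limb and neural development, was at 82.9 and 81.3 CPM in wild-type and 69.5 and 68.9 in Hox-/- gastruloids at 96 h, slightly lower in Hox-/- (log2 -0.19 ± 0.0483 SE, adjusted p = 0.00109). By 120 h Pbx3 had 38.7 and 36.0 CPM in wild type and 64.1 and 68.8 in Hox-/-, 1.92-fold higher in Hox-/- (log2 0.94 ± 0.0701 SE, adjusted p = 2.46e-16). The groups did not overlap at either time, with the order turned around between them. In endoderm cultures Pbx3 was at 30.5, 27.9 and 27.4 CPM in wild type and 25.5, 25.3 and 24.5 in Hox-/- (log2 -0.18 ± 0.0713 SE, adjusted p = 0.0546). In mES cells it was at 7.30 and 7.23 CPM against 6.201 and 7.39 (log2 -0.11 ± 0.162 SE, adjusted p = 0.692).

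Pbx4, the member best known from testis, passed the genotype test at 120 h and in none of the other 3 settings. It was at 4.43 and 5.82 CPM in wild type (41 and 53 counts) and 1.29 and 1.496 in Hox-/- (15 and 16 counts). That is 3.40-fold lower in Hox-/- (log2 -1.76 ± 0.285 SE, adjusted p = 7.83e-07), the largest fold of any member in these genotype comparisons, at low counts. At 96 h the values were 4.22 and 4.26 CPM in wild type and 3.97 and 4.35 in Hox-/- (log2 0.02 ± 0.174 SE, adjusted p = 0.956). In endoderm cultures and mES cells the ranges overlapped (log2 -0.46 ± 0.281 SE, adjusted p = 0.203, and 0.05 ± 0.323 SE, adjusted p = 0.939).

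Pknox2 (also called Prep2) was at 11.9 and 12.8 CPM in wild-type mES cells and 19.1 and 17.3 in Hox-/- ones, 1.47-fold higher (log2 0.56 ± 0.115 SE, adjusted p = 3.54e-04). In endoderm cultures it was at 24.0, 23.8 and 27.6 CPM in wild type and 49.4, 50.9 and 51.2 in Hox-/-, 2.02-fold higher (log2 1.01 ± 0.0714 SE, adjusted p = 5.06e-08). No Hox-/- library reached down to a wild-type one in either comparison. In gastruloids at 96 h it was at 46.6 and 45.4 CPM in wild type and 94.6 and 99.0 in Hox-/-, 2.18-fold higher (log2 1.12 ± 0.0496 SE, adjusted p = 5.68e-25). By 120 h Pknox2 had 58.7 and 55.8 CPM against 78.1 and 75.2, 1.45-fold higher (log2 0.53 ± 0.0627 SE, adjusted p = 4.16e-10). The genotype difference was larger in endoderm cultures than in mES cells by a log2 value of 0.48 ± 0.132 (SE, adjusted p = 0.0115), a call lost without mES wild-type replicate 2 (0.44) or mES Hox-/- replicate 2 (0.41).

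Pknox1 (also called Prep1), the other gene of the family, was at 34.9 and 33.3 CPM in wild-type mES cells and 30.03 and 27.1 in Hox-/- ones (log2 -0.26 ± 0.0845 SE, adjusted p = 0.0238). The mES call was lost with DESeq2 (adjusted p = 0.24) and without wild-type replicate 1 (-0.22), wild-type replicate 2 (-0.30) or Hox-/- replicate 2 (-0.19). In endoderm cultures Pknox1 was at 26.0, 25.8 and 25.5 CPM in wild type and 21.4, 22.02 and 21.6 in Hox-/-, 1.18-fold lower (log2 -0.24 ± 0.0702 SE, adjusted p = 0.0117). In gastruloids at 96 h Pknox1 had 20.4 and 18.6 CPM against 13.9 and 14.2, 1.34-fold lower (log2 -0.42 ± 0.0882 SE, adjusted p = 1.32e-04). The genotypes did not overlap in any of these settings. Nor did they at 120 h, with 20.5 and 20.2 CPM against 18.02 and 16.1, but the difference did not pass the test (log2 -0.14 ± 0.111 SE, adjusted p = 0.3).

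Marker levels of several cell types differed between the same groups. At 120 h the 11 endoderm markers summed to 1022 to 1024 CPM in wild-type and 203 to 210 in Hox-/- Activin A gastruloids. The 8 presomitic and somitic markers summed to 458 to 463 CPM and 875 to 881, and the 9 neural markers, with Irx3 among them, to 93.5 to 94.4 and 30.5 to 31.9. None of these was at the floor of 3 counts in every library, except the neural genes Olig2 and Nkx6-2 in Hox-/-. In endoderm cultures pluripotency markers, none of the 8 at the floor, summed to 830 to 972 CPM in wild type and 244 to 263 in Hox-/-. Their part in the differences of the cofactor genes was not tested.

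From 96 h to 120 h Meis1 rose 43.4-fold in wild-type and 55.5-fold in Hox-/- Activin A gastruloids, while the other members changed 3.00-fold or less or did not pass the test. In wild type 4 members rose and 1 fell, against 37.2% and 37.8% of 16831 genes. In Hox-/- 4 rose and 3 fell, against 34.9% and 37.6%. The question was how time acts in each genotype, and whether it acts differently, which was tested as an interaction for which 38.9% of all genes were called. The members' median log2 change with time was 0.22 in wild type and 0.10 in Hox-/-, beside 0.00 and -0.01 over all genes. These comparisons share libraries with the genotype comparisons above.

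Meis1 rose from 1.64 and 1.24 CPM at 96 h to 66.8 and 64.4 at 120 h in wild type, 43.4-fold (log2 5.44 ± 0.116 SE, adjusted p = 4.95e-39). In Hox-/- it rose from 1.64 and 1.27 CPM to 86.2 and 81.3, 55.5-fold (log2 5.79 ± 0.115 SE, adjusted p = 9.55e-41). The rise was therefore present in both genotypes, and the difference between the rises had a log2 value of 0.36 ± 0.266 (SE, adjusted p = 0.309). Meis2 rose 1.91-fold in wild type (log2 0.93 ± 0.0429 SE, adjusted p = 5.83e-25) and 2.12-fold in Hox-/- (log2 1.08 ± 0.0428 SE, adjusted p = 9.03e-28). The interaction of 0.15 ± 0.0605 (SE, adjusted p = 0.0443) was lost with DESeq2 (adjusted p = 0.132), total-count scaling (0.091), the replicate block (adjusted p = 0.0511), or without any library other than wild-type replicate 2 at 120 h and Hox-/- replicate 2 at 96 h (0.13 to 0.17).

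Meis3 did not pass the test of time in wild type, where its log2 change was -0.02 ± 0.0593 (SE, adjusted p = 0.746). In Hox-/- it fell 1.24-fold (log2 -0.31 ± 0.0645 SE, adjusted p = 2.99e-05), a log2 change of -0.17 without Hox-/- replicate 1 at 96 h, and on log2(FPKM + 1) the call was lost (adjusted p = 0.0913). The interaction was -0.29 ± 0.0879 (SE, adjusted p = 0.0066) and was lost without Hox-/- replicate 1 at 96 h (-0.14) or replicate 2 at 120 h (-0.27). It was also lost without the low-count filter (-0.21), with DESeq2 (adjusted p = 0.0733) and on log2(FPKM + 1), where it was -0.061.

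Pbx2 rose in both genotypes, 1.36-fold in wild type (log2 0.45 ± 0.0411 SE, adjusted p = 1.13e-13) and 1.54-fold in Hox-/- (log2 0.62 ± 0.0405 SE, adjusted p = 4.34e-19). The rise was larger in Hox-/- by 0.18 ± 0.0576 (SE, adjusted p = 0.0111), which total-count scaling reduced to 0.12 (adjusted p = 0.0937). Pbx3 fell 2.31-fold in wild type (log2 -1.21 ± 0.0626 SE, adjusted p = 6.86e-23), and in Hox-/- its log2 change was -0.08 ± 0.0559 (SE, adjusted p = 0.218). The genotypes differed in this by 1.13 ± 0.0853 (SE, adjusted p = 9.31e-16). Pbx4 had a log2 change of 0.20 ± 0.196 (SE, adjusted p = 0.367) in wild type and fell 3.00-fold in Hox-/- (log2 -1.58 ± 0.267 SE, adjusted p = 8.71e-07). The interaction for Pbx4 was -1.78 ± 0.338 (SE, adjusted p = 2.65e-05), and it did not pass on log2(FPKM + 1) (adjusted p = 0.111).

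Pknox2 rose 1.18-fold with time in wild type (log2 0.24 ± 0.0614 SE, adjusted p = 5.03e-04) and fell 1.27-fold in Hox-/- (log2 -0.35 ± 0.0521 SE, adjusted p = 6.16e-08). The opposite directions differed by -0.59 ± 0.0806 (SE, adjusted p = 4.09e-08). Pknox1 had a log2 change of -0.01 ± 0.0963 (SE, adjusted p = 0.936) in wild type and rose 1.20-fold in Hox-/- (log2 0.27 ± 0.105 SE, adjusted p = 0.0215). The Hox-/- rise of Pknox1 was lost with DESeq2 (adjusted p = 0.123) and without Hox-/- replicate 1 at 96 h (0.24) or at 120 h (0.18). The interaction for Pknox1 was 0.28 ± 0.142 (SE, adjusted p = 0.124).

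**Figure D4:**
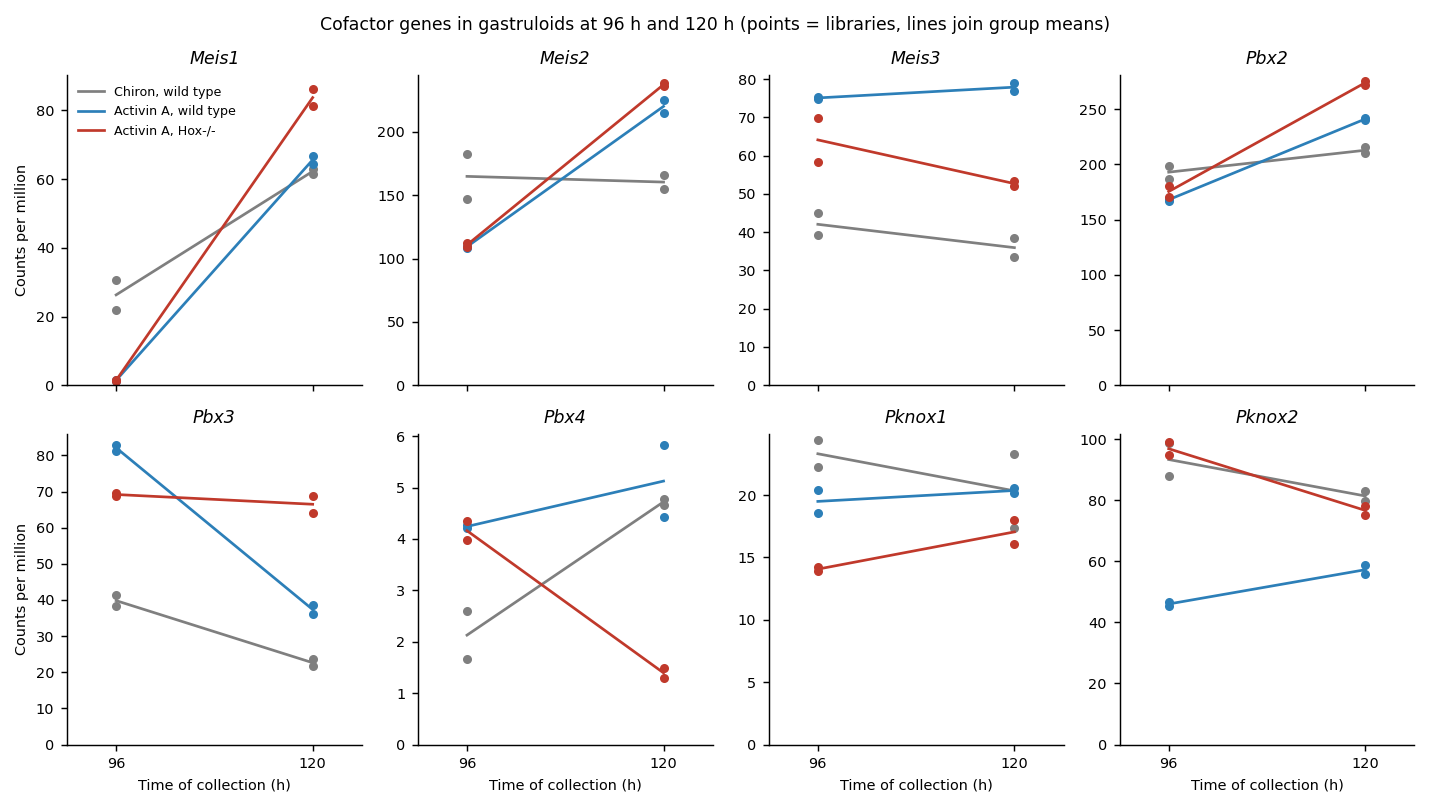
The vertical axes give the CPM of each gene and the horizontal axes the time, 96 h or 120 h, with points for libraries and lines joining group means of wild-type Chiron (grey), wild-type Activin A (blue) and Hox-/- Activin A (red) gastruloids. The blue and red Meis1 lines rise together, whereas for Pbx3 only the blue one falls by more than 2 times and for Pbx4 only the red one falls.

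Marker sums differed between the same times. The 8 presomitic and somitic markers summed to 131 to 139 CPM at 96 h and 458 to 463 at 120 h in wild-type Activin A gastruloids, and to 153 to 169 and 875 to 881 in Hox-/-, with Uncx at the floor in Hox-/- at 96 h. The 9 neural markers summed to 23.6 to 24.3 and 93.5 to 94.4 CPM in wild type and to 17.6 to 18.4 and 30.5 to 31.9 in Hox-/-. Olig2 was at the floor at 96 h in both genotypes, Neurog2 at 96 h in wild type, and Olig2 and Nkx6-2 at 120 h in Hox-/-. Irx3 alone was at means of 12.8 and 33.5 CPM in wild type and 3.22 and 13.2 in Hox-/-. The median log2 change of the 9 neural markers with time was 3.60 in wild type but 0.15 in Hox-/-. At 96 h 3 of the 9 were higher in Hox-/- and 2 lower (median log2 change 0.79), against 22.2% and 16.7% of all genes. Caudal progenitor markers, 7 genes that include T and the Cdx genes, summed to 2936 to 3082 CPM at 96 h and 535 to 539 at 120 h in wild-type Activin A gastruloids. In Hox-/- they summed to 4191 to 4276 and 643 to 647. Pluripotency markers went from 1075 to 1102 CPM down to 124 to 125 in wild type, and from 940 to 957 down to 36.5 to 38.6 in Hox-/-, where Zfp42 was at the floor. Their part in the changes of the cofactor genes was not tested.

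Activin A was compared with Chiron in wild-type gastruloids, to see which cofactor genes depend on the treatment. At 96 h all 8 members differed: 3 were higher with Activin A and 5 were lower, against 31.3% and 30.2% of 17305 genes. At 120 h 4 were higher and 1 lower, against 20.3% and 21.6%. Within Chiron gastruloids 2 rose and 4 fell with time, against 28.5% and 33.2%. The treatment by time interaction was called for 7 members and for 39.6% of all genes. The members' median log2 change was -0.29 at 96 h and 0.10 at 120 h, beside -0.00 and -0.01 over all genes tested.

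Meis1 was at 30.8 and 21.9 CPM in Chiron gastruloids at 96 h, when Activin A gastruloids had 1.64 and 1.24 CPM, 18.9-fold lower (log2 -4.24 ± 0.174 SE, adjusted p = 3.86e-16). The 2 Chiron libraries were themselves apart, but both stood far above both Activin A libraries. By 120 h Meis1 was at 61.4 and 63.1 CPM with Chiron and 66.8 and 64.4 with Activin A (log2 0.03 ± 0.103 SE, adjusted p = 0.872). Its rise in Chiron gastruloids was 2.23-fold (log2 1.16 ± 0.103 SE, adjusted p = 1.24e-09), smaller than with Activin A by a log2 value of 4.26 ± 0.212 (SE, adjusted p = 1.01e-13).

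Meis2 was at 183 and 147 CPM in Chiron gastruloids at 96 h, 1.57-fold above Activin A (log2 -0.65 ± 0.0699 SE, adjusted p = 2.46e-08). At 120 h Chiron gastruloids had 166 and 155 CPM, and Activin A was 1.32-fold higher (log2 0.40 ± 0.0744 SE, adjusted p = 1.17e-04, or 0.051 with limma on log2(FPKM + 1)). The order of the treatments was thus reversed, with an interaction of 1.05 ± 0.102 (SE, adjusted p = 1.49e-08). Meis3 was higher with Activin A at both times, 1.70-fold at 96 h (log2 0.77 ± 0.0663 SE, adjusted p = 5.87e-10) and 2.10-fold at 120 h (log2 1.07 ± 0.0819 SE, adjusted p = 1.95e-10). Its Chiron values were 39.1 and 45.0 CPM at 96 h and 33.5 and 38.4 at 120 h, a fall of -0.35 ± 0.0797 (SE, adjusted p = 6.52e-04) that was -0.21 without Chiron replicate 2 at 96 h.

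With Activin A, Pbx3 exceeded its Chiron level 1.98-fold at 96 h (log2 0.98 ± 0.0627 SE, adjusted p = 2.10e-12) and 1.59-fold at 120 h (log2 0.67 ± 0.0924 SE, adjusted p = 3.14e-06). In Chiron gastruloids it was at 41.3 and 38.3 CPM at 96 h and 23.6 and 21.6 at 120 h, a 1.88-fold fall (log2 -0.91 ± 0.082 SE, adjusted p = 1.41e-09). The fall of Pbx3 was therefore seen with both treatments of wild-type cells. Pbx2 differed little: it was 1.20-fold lower with Activin A at 96 h (log2 -0.26 ± 0.0472 SE, adjusted p = 4.57e-05). At 120 h the log2 difference was 0.13 ± 0.0504 (SE, adjusted p = 0.0418), a call that leaving out any of the 4 libraries ended (0.12 to 0.14), as did DESeq2 (adjusted p = 0.102). Pbx4 was at 1.65 and 2.60 CPM with Chiron at 96 h and was 1.85-fold higher with Activin A (log2 0.89 ± 0.201 SE, adjusted p = 5.53e-04). Chiron gastruloids reached 4.78 and 4.67 CPM of Pbx4 at 120 h, a 2.00-fold rise (log2 1.00 ± 0.231 SE, adjusted p = 6.43e-04), and neither Pbx4 call passed on log2(FPKM + 1) (adjusted p = 0.231 and 0.157).

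Pknox2 was lower with Activin A, by 2.11-fold at 96 h (log2 -1.08 ± 0.0625 SE, adjusted p = 3.45e-13) and 1.47-fold at 120 h (log2 -0.56 ± 0.0738 SE, adjusted p = 1.54e-06). Chiron libraries had 98.7 and 87.9 CPM at 96 h and 82.9 and 79.8 at 120 h, a fall of -0.30 ± 0.0643 (SE, adjusted p = 3.25e-04) that was -0.18 without Chiron replicate 1 at 96 h. Side by side, wild-type Activin A gastruloids at 96 h had less Pknox2 than both the wild-type Chiron and the Hox-/- Activin A gastruloids. Pknox1, at 22.2 and 24.4 CPM with Chiron at 96 h and 17.35 and 23.3 at 120 h, was 1.26-fold lower with Activin A at 96 h (log2 -0.33 ± 0.0933 SE, adjusted p = 0.00403), a call lost without Activin A or Chiron replicate 2 (-0.23 each) and with DESeq2 (adjusted p = 0.0602). Its Chiron ranges at the 2 times overlapped, and the fall with time (log2 -0.33 ± 0.107 SE, adjusted p = 0.0113) was lost with DESeq2 (adjusted p = 0.0699), under total-count scaling (-0.22), and without Chiron replicate 2 at 96 h (-0.23) or replicate 1 at 120 h (-0.13), and it was -0.54 without replicate 2 at 120 h.

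The interactions of treatment and time were smaller for the remaining members. They were 0.39 ± 0.0691 (SE, adjusted p = 8.05e-05) for Pbx2 and 0.52 ± 0.0971 (SE, adjusted p = 1.53e-04) for Pknox2. For Meis3 (0.30 ± 0.106 SE, adjusted p = 0.025), Pbx3 (-0.32 ± 0.112 SE, adjusted p = 0.0266) and Pbx4 (-0.83 ± 0.311 SE, adjusted p = 0.0381) the call was lost with DESeq2 and without several single libraries. Leaving out 1 library gave 0.18 to 0.30 for Meis3 in the 5 fits that lost the call (Activin A replicates 1 and 2 at 96 h, Activin A replicate 1 at 120 h, Chiron replicate 2 at 96 h, Chiron replicate 1 at 120 h). It gave -0.32 to -0.23 for Pbx3 in 4 fits (Activin A replicate 1 at 96 h, Activin A replicate 2 at 120 h, Chiron replicate 2 at 96 h, Chiron replicate 1 at 120 h). For Pbx4 it gave -0.85 to -0.59 in 6 fits (both Activin A replicates at 96 h, Activin A replicate 1 at 120 h, Chiron replicate 1 at 96 h, both Chiron replicates at 120 h). Without Activin A replicate 1 at 96 h or Chiron replicate 1 at 120 h, 4 of the 8 members kept a called interaction. The sums of 8 presomitic and somitic markers differed between the treatments too, at 683 to 809 CPM with Chiron and 131 to 139 with Activin A at 96 h, and 890 to 939 and 458 to 463 at 120 h. The 11 endoderm markers differed the other way, at 205 to 233 CPM with Chiron and 879 to 998 with Activin A at 96 h, and 98.4 to 101 and 1022 to 1024 at 120 h. No gene of either list was at the floor in these groups, and the part of these markers in the differences was not tested.

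Endoderm cultures were compared with mES cells of the same genotype, to see which cofactor genes differ between them. The mES and endoderm libraries were deposited as separate sets, so the culture and the set cannot be told apart. In both genotypes 6 members were higher in endoderm cultures and 1 was lower. The backgrounds were 41.6% higher and 38.3% lower of 16251 genes in wild type, and 42.7% and 37.9% in Hox-/-. The members' median log2 change was 1.04 in wild type and 1.34 in Hox-/-, beside 0.07 and 0.10 over all genes. Meis1 was 31.2-fold higher in wild-type endoderm cultures (log2 4.96 ± 0.193 SE, adjusted p = 3.83e-15) and 41.4-fold higher in Hox-/- ones (log2 5.37 ± 0.225 SE, adjusted p = 1.08e-14), from the few counts in mES cells given above. Without mES Hox-/- replicate 1 the log2 difference in Hox-/- was 5.99. Meis3 was 19.6-fold higher in wild type (log2 4.29 ± 0.168 SE, adjusted p = 4.36e-15) and 31.4-fold higher in Hox-/- (log2 4.98 ± 0.174 SE, adjusted p = 5.70e-16). Meis2 differed less and was higher by 1.52-fold in wild type and 1.45-fold in Hox-/- (adjusted p = 1.13e-05 and 6.36e-06).

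Pbx3 was 3.62-fold higher in wild-type and 3.50-fold higher in Hox-/- endoderm cultures than in mES cells (adjusted p = 1.72e-12 and 4.48e-12). Pbx2 was 2.25-fold and 2.46-fold higher (adjusted p = 3.55e-13 and 5.92e-14), and Pknox2 1.88-fold and 2.62-fold higher (adjusted p = 3.63e-08 and 6.14e-12). Pknox1 alone among the 8 was lower, by 1.44-fold and 1.40-fold (adjusted p = 2.59e-06 and 1.20e-05). Pbx4 did not pass in either genotype (log2 0.16 ± 0.329 and -0.31 ± 0.341 SE, adjusted p = 0.661 and 0.404). The genotype by differentiation interaction was called for 24.1% of all genes and, among the members, for Pknox2 alone. It was 0.41 ± 0.493 (SE) for Meis1, 0.68 ± 0.36 for Meis3 and -0.47 ± 0.473 for Pbx4, with larger standard errors than for the other 5 members (0.0842 to 0.161).

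The other 9 TALE homeobox genes are 6 Irx genes, Mkx, and the repressors Tgif1 and Tgif2. Of the 7 tested in gastruloids, 2 were higher and 3 lower in Hox-/- at 96 h, and 2 higher and 4 lower at 120 h. Over all genes the shares were 22.2% higher and 16.7% lower at 96 h, and 24.9% and 25.5% at 120 h. In Hox-/- Activin A gastruloids at 96 h Irx1 was 5.90-fold lower, Irx3 3.85-fold lower and Irx5 4.95-fold lower than in wild type (adjusted p = 7.37e-14, 1.91e-17 and 1.24e-11). At 120 h Irx1, Irx2, Irx3 and Irx5 were lower by 1.81-fold, 2.48-fold, 2.34-fold and 3.01-fold (adjusted p = 4.18e-08, 2.54e-09, 4.10e-14 and 3.15e-10). Tgif1 was higher in Hox-/- at both times, 1.35-fold and 1.36-fold (adjusted p = 3.16e-13 and 1.09e-10). Tgif2 was 1.31-fold higher at 120 h (adjusted p = 6.45e-09), and Mkx, a tendon regulator, was 1.57-fold higher at 96 h (adjusted p = 4.41e-10). In endoderm cultures 5 of the 7 tested were higher and none lower, against 23.1% of all genes in each direction: Irx1 1.67-fold, Irx2 1.78-fold, Mkx 1.20-fold, Tgif1 1.24-fold and Tgif2 1.10-fold. In mES cells Irx2 alone of 4 tested differed, 1.86-fold lower (adjusted p = 2.98e-04), against 12.4% of all genes higher and 10.8% lower. Irx4 and Irx6 did not exceed a group mean of 0.821 CPM and were not tested in the genotype comparisons.

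Pbxip1, which encodes a protein that binds PBX and hinders its binding to DNA, was lower in Hox-/- gastruloids by 1.20-fold at 96 h (adjusted p = 0.00595) and 1.93-fold at 120 h (log2 -0.95 ± 0.0913 SE, adjusted p = 1.12e-12). At 120 h its ranges were 44.0 to 44.6 CPM in wild type and 19.8 to 22.7 in Hox-/-, without overlap. In endoderm cultures it was 1.16-fold higher in Hox-/- (adjusted p = 0.00725).

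Meis genes are known to respond to retinoic acid, a signal made by ALDH1A2 and broken down by CYP26A1. Among 10 retinoic acid genes 1 of 7 tested was called in mES cells (higher in Hox-/-), 6 of 9 in endoderm cultures (3 higher, 3 lower), 9 of 10 in gastruloids at 96 h (2 higher, 7 lower) and 10 of 10 at 120 h (4 higher, 6 lower). The shares of all genes higher and lower were 12.4% and 10.8% in mES cells, 23.1% each in endoderm cultures, 22.2% and 16.7% at 96 h, and 24.9% and 25.5% at 120 h. The called gene in mES cells was Dhrs3, 2.14-fold higher in Hox-/- (adjusted p = 8.49e-04). In endoderm cultures Stra6 was 3.26-fold higher, Rarg 1.70-fold higher and Cyp26a1 1.83-fold lower in Hox-/- (adjusted p = 7.69e-10, 1.68e-07 and 3.36e-08). At 96 h Cyp26a1 was lower, at a mean of 24.3 CPM against 103, Aldh1a2 was 2.93-fold lower and Crabp1 3.49-fold lower (adjusted p = 8.55e-31, 6.18e-25 and 2.97e-21). At 120 h Aldh1a2 was instead 2.42-fold higher (adjusted p = 1.41e-27), while Cyp26a1 and Crabp1 were 3.53-fold and 2.65-fold lower (adjusted p = 1.97e-27 and 1.04e-27).

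For each member the 3 genes with the most similar pattern over the 10 group means of log2(CPM + 1) were found among 13272 genes with a group mean of at least 5 CPM. These correlations are descriptions over 10 points that share libraries and tables. They were Rtl5, Pax3 and St8sia2 for Meis1 (r = 0.983, 0.982 and 0.975), Ythdf3, Myef2 and Gm20075 for Meis2 (0.976, 0.976 and 0.973), and Pex2, Fam107b and Tmem246 for Meis3 (0.995, 0.992 and 0.989). For Pbx2 they were Rab39b, Sh3bp2 and Mdk (0.996, 0.996 and 0.993), and for Pbx3 Zfp36l2, Il18 and Mid1ip1 (0.977, 0.969 and 0.968). For the low Pbx4 they were Samd10, Dctn3 and Jkamp (0.958, 0.947 and 0.945), for Pknox1 Fam234b, Slc35f6 and Unc13d (0.972, 0.943 and 0.941), and for Pknox2 Zdhhc16, Tug1 and Cfl2 (0.983, 0.972 and 0.967).

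Among the members themselves, r over the 10 groups was highest for Meis3 with Pbx2 (0.94) and with Pbx3 (0.92), and lowest for Pknox1 with Pknox2 and with Pbx3 (-0.85 each). Over the 6 gastruloid groups alone, Meis3 with Pbx2 gave r = -0.14 and Pknox1 with Pknox2 gave -0.24. Meis3 with Pbx3 gave 0.64 there, and Pknox1 with Pbx3 gave -0.56. There r was 0.93 for Meis1 with Meis2, 0.88 for Meis1 with Pbx2 and 0.96 for Meis2 with Pbx2, against 0.64, 0.78 and 0.88 over the 10 groups.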

How the data were processed

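RNA was selected for poly(A) tails and made into stranded libraries, per the labels' protocols. As deposited, the tables of raw counts list whole reads per Ensembl gene and library. FPKM values were deposited in tables of their own, scaled for transcript length and library size. The submitters' processing notes name cutadapt 1.16, STAR, Cufflinks 2.2.1 and mm10, and the counting tool and its strand setting are not given in the sources used here. All value columns matched a sample. The 2 gastruloid tables share 4 libraries (wild type with Activin A), with identical values. The 8 genes and all gene lists were chosen with earlier results of these data known.

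CPM is a count divided by the library total. Tests used edgeR 4.0.16 in R 4.3.3 (filterByExpr, TMM, quasi-likelihood test, Benjamini-Hochberg adjustment over all genes tested, threshold 0.05), in 14 contrasts. The mES and endoderm tables and each gastruloid table (its 4 groups together) were fitted separately, and a joint fit of mES and endoderm libraries gave the comparisons between them. The scripts were tested on simulated data with 200 changed genes. Alternatives were RLE and total-count scaling, leaving out the low-count filter, requiring 10 counts or more in each library, DESeq2 1.42.0, limma 3.58.1 on log2(FPKM + 1) and on log2(FPKM + 0.1) for genes with FPKM of at least 1 in 2 libraries, fits of only the groups compared, a replicate block, and leaving out each library. FPKM fits were not run across the separately normalized mES and endoderm tables. A gene at 3 counts or fewer in all libraries of a group was at the floor (0.104 to 0.329 CPM), which covers counting error only. All 8 members and all other TALE genes were to be named, with up to 3 called retinoic acid genes of smallest p per genotype contrast and the 3 genes most similar to each member.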

Additional observations from a re-analysis of the deposited data

Results flagged for a closer look

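Effects on several cofactor genes differed between groups by a test of the difference itself, given as edgeR log2 values. The genotype difference changed from 96 h to 120 h by 0.15 for Meis2, -0.29 for Meis3, 0.18 for Pbx2, 1.13 for Pbx3, -1.78 for Pbx4 and -0.59 for Pknox2. The change with time differed between Activin A and Chiron by 4.26 for Meis1, 1.05 for Meis2, 0.30 for Meis3, 0.39 for Pbx2, -0.32 for Pbx3, -0.83 for Pbx4 and 0.52 for Pknox2. The genotype difference of Pknox2 was larger in endoderm cultures than in mES cells by 0.48. At least 1 alternative ended the genotype by time calls of Meis2, Meis3, Pbx2 and Pbx4. The same held for the treatment by time calls of Meis3, Pbx3 and Pbx4, and for the Pknox2 call of 0.48.

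In addition, the genotype difference had opposite signs in endoderm cultures and in Activin A gastruloids, with no overlap of libraries in either. The gastruloid value was below the endoderm value by a log2 difference of -0.48 for Meis3 at 96 h and -0.77 at 120 h. It was above it by 0.77 for Meis1 and by 1.12 for Pbx3 at 120 h. These tables were fitted apart, so these 4 differences were not tested, and Pbx3 did not pass the test in endoderm cultures.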

How the results depend on the processing

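Of 111 tests on the 8 genes 79 were called, and 56 of these kept their call and direction under every alternative run. The remaining 23 lost it under at least 1, among them Pbx2 by genotype at 96 h, which turned to -0.012 on both FPKM scales. RLE scaling ended none of the 79 calls, DESeq2 ended 12 and total-count scaling 4. Calls were also gained: 1 with RLE, 2 with total counts, 1 under each other low-count filter, 1 on log2(FPKM + 1) and 6 on leaving out a library. In endoderm cultures the members called rose from 5 to 6 with RLE or total counts (Pbx3), and to as many as 7 without wild-type replicate 3 (Pbx2 and Pbx3). Total-count scaling shifted the median log2 change of all genes by -0.11 for genotype at 120 h and by 0.12 for endoderm against mES cells in wild type, and CPM from TMM-scaled totals was 0.909 to 1.12 times the CPM given. The cause of the changes below was not tested, except that leaving out a library leaves fewer samples. A lone remaining library was then assumed to vary like the other groups.

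The number of members called in mES cells (3) was 0 on log2(FPKM + 1) and 1 on log2(FPKM + 0.1). It fell to 3 in endoderm cultures and at 120 h between treatments on log2(FPKM + 1), to 3 for genotype at 96 h with DESeq2 and on log2(FPKM + 1), and to 4 for treatment by time with DESeq2. Of all genes, 1099 were called in mES cells with DESeq2, 52 on log2(FPKM + 1) and 372 on log2(FPKM + 0.1), and for genotype at 96 h 3647, 3078 and 2787. On log2(FPKM + 0.1), genotype by time gave 4264 and treatment at 96 h 6670. Leaving out 1 library gave 1477 to 3372 genes in mES cells, 4 to 7 members for treatment by time and 0 to 1 for genotype by differentiation.

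The numbers did not pair the samples: correlations of deviations were -0.203, 0.209 and 0.008 in endoderm cultures and under 0.1 in size elsewhere. The replicate block ended 1 of the 79 calls, Meis2 by genotype and time (0.15, adjusted p = 0.0511), and added none.

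Other reversals concerned values that had not passed. On log2(FPKM + 1) and log2(FPKM + 0.1) these were Pbx4 in mES cells (-0.071 and -0.097), Meis2 by genotype at 96 h (-0.05 and -0.052) and Pknox1 with time in wild-type Activin A gastruloids (0.016 and 0.019). Pbx4 between treatments at 120 h was -0.018 on log2(FPKM + 1). Total-count scaling gave -0.038 for Pbx4 by genotype at 96 h, 0.053 and 0.066 for Meis3 and Pknox1 with time in wild type, and 0.02 for Pknox1 between treatments at 120 h. Pbx4 at 96 h was -0.033 without a filter, -0.018 with at least 10 counts and -0.022 with its groups alone, and Pknox1 between treatments at 120 h was 0.016 and 0.0034 under the last 2. Leaving out 1 library gave Pbx2 -0.041 to 0.062, Pbx3 -0.23 to 0.016 and Pbx4 -0.36 to 0.53 by genotype in mES cells, Meis1 -0.12 to 0.31 and Pbx4 -0.041 to 0.087 by genotype at 96 h, Meis3 -0.044 to 0.0055, Pbx4 -0.0037 to 0.38 and Pknox1 -0.079 to 0.051 with time in wild type. It gave Pbx4 -0.14 to 0.25 and Pknox1 -0.24 to 0.17 between treatments at 120 h, Meis2 -0.26 to 0.056 with time in Chiron gastruloids, Pbx4 -0.23 to 0.64 between endoderm and mES cells in wild type, Meis2 -0.17 to 0.014, Pbx3 -0.19 to 0.076 and Pknox1 -0.033 to 0.11 by genotype and differentiation.

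Precision was limited by 2 or 3 libraries per group and, for Pbx4 and for Meis1 in mES cells, by 15 to 110 and 3 to 11 counts per library. FPKM alternatives were not run for comparisons of endoderm with mES cells.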
